A study of Mus musculus with 14 samples.

Results

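The inner retinal neuron and Müller glia genes are 36 mouse genes, chosen by name as markers of the cells that lie inward of the photoreceptors, and all 36 were found among the 34452 mouse genes measured in bulk RNA of the retinal pigment epithelium (RPE). The RPE is the pigmented cell sheet behind the photoreceptors, and it is not a source of bipolar, amacrine or ganglion cells. The genes were therefore read to ask how much inner retina the RPE libraries carried and whether that amount differed between the treatments. Some of them, such as Trpm1 and Glul, are also used outside the inner retina. The sum of all 36 genes therefore does not measure inner retina alone. By class they are 8 genes of bipolar cells, 7 of amacrine cells, 4 of horizontal cells, 9 of ganglion cells, 5 of Müller glia and astrocytes, and 3 of neurons in general.

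All libraries came from rd1 mice of the FVB/N strain at postnatal day 20. The rd1 mouse has lost the function of Pde6b, a subunit of the rod phosphodiesterase, and its rods die early in life in every eye studied here. In each of 7 mice both eyes had been given an adeno-associated virus (AAV), AAV-Best1-GFP, that drives green fluorescent protein from the human Best1 promoter, which is active in the RPE. In 1 eye of each mouse this vector was joined by AAV-Best1-Nrf2, which carries the human NFE2L2 gene for Nrf2 behind that promoter in another capsid, so that the Nrf2 eyes differed from the control eyes by the transgene and by the added vector. After the retina was lifted off, the eyecup was cleaned of connective tissue and its released RNA was purified and amplified. No cell sort is described, and the inner retina was not a target of the promoter. Each library came from 1 eye and carries the name of its group and the number of its mouse.

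The inner retina relays the signals of the photoreceptors. Bipolar cells receive from rods and cones and pass the signal to ganglion cells, whose axons form the optic nerve, while horizontal cells and amacrine cells shape it through lateral, mostly inhibitory, contacts. Müller glia span the whole retina, take up glutamate and convert it to glutamine. Astrocytes lie with the ganglion cell axons. In the rd1 retina the inner neurons outlive the rods, and they are still present when the photoreceptor layer has thinned.

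The sequences below are the windows from 250 bases before to 50 bases after the start of 3 neuronal genes, which were highest in the same libraries, and of Glul, a Müller glia gene that was high in all libraries. They are shown as examples from the genes with a matched window, and whether their letters bear on the levels was not tested. They were taken from RefSeq on build GRCm38.p6. Capitals mark the letters TAATCC, which photoreceptor and bipolar homeobox factors of the Otx and Crx family can bind, or the letters TGACNNNGC, the core of the element that Nrf2 binds, both searched on either strand. In Gad1, the glutamate decarboxylase that makes GABA in amacrine cells, the window chr2:70561879-70562178 on the plus strand held TAATCC on the reverse strand, 203 bases before the start. In Cabp5, a calcium sensor of bipolar cells, the window chr7:13397905-13398204 on the plus strand held it 160 and 41 bases before the start. In Grm6, the glutamate receptor of ON bipolar cells, the window chr11:50850435-50850734 on the plus strand held TGACNNNGC on the reverse strand, 59 bases before the start. Neither set of letters was in the window of Glul, chr1:153899679-153899978 on the plus strand.
Gad1: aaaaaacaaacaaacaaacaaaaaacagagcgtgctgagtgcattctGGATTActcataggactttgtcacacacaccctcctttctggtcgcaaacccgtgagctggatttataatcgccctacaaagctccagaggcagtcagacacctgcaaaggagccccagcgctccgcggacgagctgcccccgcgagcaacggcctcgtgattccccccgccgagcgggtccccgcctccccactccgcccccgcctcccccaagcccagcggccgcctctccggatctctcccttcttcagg
Cabp5: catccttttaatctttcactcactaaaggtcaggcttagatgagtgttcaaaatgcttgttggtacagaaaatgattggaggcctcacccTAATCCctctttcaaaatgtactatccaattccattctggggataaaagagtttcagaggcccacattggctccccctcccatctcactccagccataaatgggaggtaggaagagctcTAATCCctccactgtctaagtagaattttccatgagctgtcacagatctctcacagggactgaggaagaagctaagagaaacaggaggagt
Grm6: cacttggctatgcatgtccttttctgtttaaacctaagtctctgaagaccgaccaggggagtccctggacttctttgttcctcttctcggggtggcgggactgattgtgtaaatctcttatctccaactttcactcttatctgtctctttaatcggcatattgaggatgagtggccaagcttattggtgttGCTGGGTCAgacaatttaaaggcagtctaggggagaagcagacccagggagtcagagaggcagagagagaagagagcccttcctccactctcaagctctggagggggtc
Glul: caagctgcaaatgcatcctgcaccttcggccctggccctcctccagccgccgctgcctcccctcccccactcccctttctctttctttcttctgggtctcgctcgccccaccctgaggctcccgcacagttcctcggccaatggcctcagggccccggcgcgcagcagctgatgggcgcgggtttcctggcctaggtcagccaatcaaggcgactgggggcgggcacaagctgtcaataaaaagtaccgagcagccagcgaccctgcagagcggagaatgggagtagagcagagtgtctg
RefSeq windows were matched for 26 of the 36 genes, giving 36 windows. TGACNNNGC was in 9 of them (25%) and in 4071 of 32851 windows of the same length over all genes (12.4%). The genes that held it were Gad2, Grm6, Isl1, Lhx1, Slc6a9, Tfap2a, Trpm1 and Vsnl1. TAATCC was in 4 of the 36 windows (11.1%), those of Cabp5, Gad1, Isl1 and Trpm1, and in 2320 of all windows (7.06%). A match is a description of the letters and not a binding site.

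Total counts ranged from 16548349 in Nrf2 2 to 50543008 in Nrf2 7. Levels are given as CPM, counts per 1000000 counts of the library, and a count of 0 allows a level of up to 0.0594 to 0.181 CPM depending on the library, for counting error only. The vector transcript lay between 1163 and 8711 CPM in Nrf2 eyes and between 1.12 and 1163 CPM in control eyes, and the library labelled control 3 carried as much of it as the library labelled Nrf2 4. RPE marker genes summed to 16592 to 35967 CPM over 10 genes in the 14 libraries, so that the labelled cell type was present in every library. The markers did not move together, and their sum does not show an equal part of RPE. Rpe65 was lower in the Nrf2 eye of 7 of 7 mice, with medians of 1296 CPM in control and 226 CPM in Nrf2 eyes. Ttr was higher in 6 of 7 mice, with medians of 3409 CPM in control and 8214 CPM in Nrf2 eyes. Surface epithelium markers, which the RPE lacks, summed to 1884 to 50480 CPM over 6 genes.

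RNA of the 36 genes was present in every library at a low total level. The 36 genes together took from 0.126% of counts in control 6 to 0.485% in control 1. Their summed level in control eyes 1 to 7 was 4853, 2383, 2778, 4733, 3080, 1261 and 2865 CPM. The Nrf2 eyes 1 to 7 held 2064, 3347, 2097, 2799, 2027, 2851 and 2706 CPM. The mean was 3136 ± 1277 CPM in control eyes and 2556 ± 504 CPM in Nrf2 eyes (SD, n = 7 each), the groups overlapped, and the Nrf2 eye was lower in 5 of 7 mice. In bulk samples, fewer cells of a type and less RNA per cell cannot be told apart.

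Most of this sum came from 4 genes that were high in all libraries. Trpm1, Slc6a9, Glul and Gnao1 held from 53.8% of it in control 1 to 91.6% in Nrf2 3. Per transcript length, the median level over the libraries was 334 TPM (counts per base of exon, scaled to the same total) for Glul, 288 TPM for Trpm1 and 187 TPM for Slc6a9, and these 3 genes were the ones over 100 TPM. Trpm1, the cation channel at the end of the ON bipolar cascade, is also a gene of pigment cells, and Glul is used by many tissues. At the other end, 13 of the 36 genes had a median under 1 TPM.

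**Figure D1:**
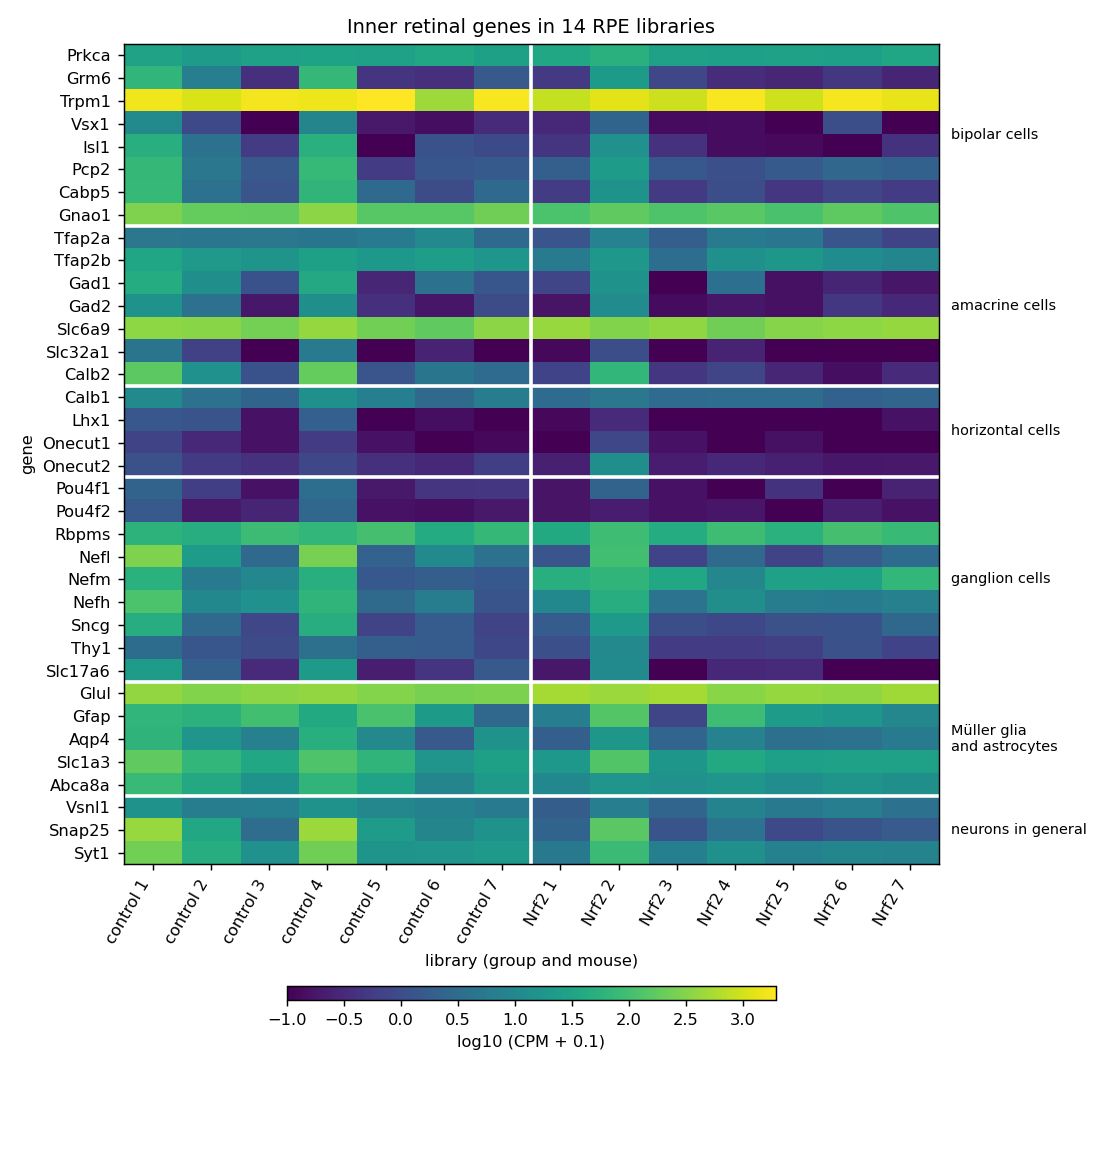
Levels of the 36 genes (rows, by cell class) in the 14 libraries (columns, control 1 to 7, then Nrf2 1 to 7) as log10 of CPM + 0.1. Control 1, control 4 and Nrf2 2 stand out as bright columns for most genes of neurons, while Trpm1, Slc6a9, Glul and Gnao1 are bright in all libraries.

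The libraries labelled control 1, control 4 and Nrf2 2 stood apart. They were the 3 highest libraries in 21 of the 36 genes (58.3%). Over all genes tested these same libraries were the 3 highest in 1160 of 16289 (7.12%), and over a further list of 93 inner retina genes in 53 (57.0%). The pattern was chosen after the values were seen and is given as a description. It held in 5 of 8 bipolar genes (Grm6, Vsx1, Isl1, Pcp2 and Cabp5), 4 of 7 amacrine genes (Gad1, Gad2, Slc32a1 and Calb2), 2 of 4 horizontal genes (Onecut1 and Onecut2), 6 of 9 ganglion genes (Pou4f1, Nefl, Nefh, Sncg, Thy1 and Slc17a6), 2 of 5 glial genes (Aqp4 and Slc1a3) and 2 of 3 genes of neurons in general (Snap25 and Syt1). It also held in 5 of 12 rod markers (41.7%), 2 of 10 cone markers and 1 of 6 endothelium markers, and in 0 of 10 RPE markers and 0 of 8 Schwann cell markers.

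The libraries were then compared over 13 genes that, within the eye, are largely restricted to retinal neurons. These were Grm6, Vsx1, Pcp2, Cabp5, Gad1, Gad2, Slc32a1, Lhx1, Onecut1, Onecut2, Pou4f1, Pou4f2 and Slc17a6, and Slc6a9 was left out of them after its values were seen. Their sum in control eyes 1 to 7 was 317, 38.7, 5.08, 308, 4.94, 7.62 and 10.8 CPM. The levels in Nrf2 eyes 1 to 7 were 4.17, 117, 2.92, 6.54, 2.93, 5.38 and 3.38 CPM. The Nrf2 eye was lower in 6 of 7 mice, and mouse 2 was the exception. The means were 98.9 ± 146 CPM in control eyes and 20.3 ± 42.6 CPM in Nrf2 eyes (SD, n = 7 each), so the spread among the control eyes was wider than the difference between the groups. Part of the low sums came from Pcp2, whose exons overlap Pet100 on the other strand. Pcp2 held 2.08 of the 3.38 CPM in Nrf2 7 and 0.484 of the 4.94 CPM in control 5. Comparisons among the low libraries are uncertain to that extent.

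Gene by gene, control 4 resembled control 1, and Nrf2 2 resembled it less. Over these 13 genes, the level in control 4 divided by that in control 1 had a median of 0.948 and quartiles of 0.859 and 1.25. For Nrf2 2 over control 1 the median was 0.334 over the 12 genes with more than 3 counts in both, with quartiles of 0.217 and 0.814. Pou4f2, the gene left out, stood at 0.121 CPM in Nrf2 2 and 1.49 CPM in control 1. Onecut2, a transcription factor of horizontal cells, went the other way and was 12.1 times as high in Nrf2 2 as in control 1. Control 2 lay between the high and the low libraries, with a median of 0.184 of control 1 over 12 genes. Over all of the 36 genes with more than 3 counts in both, control 3 and Nrf2 4 differed little, with a median ratio of 1.05 and quartiles of 0.944 and 1.17 over 28 genes. They were also close in marker sums outside the retina. Control 3 and Nrf2 4 held 3860 and 3734 CPM of Schwann cell markers and 22089 and 20761 CPM of surface epithelium markers. Muscle markers stood at 1526 and 1493 CPM. Whether the labels of both libraries hold was not tested, and both were kept in their labelled groups.

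Photoreceptor RNA moved with the inner retina genes in part. Rod markers summed to 712, 121, 29.1, 572, 223, 40.1 and 155 CPM in control eyes 1 to 7 and to 12.5, 146, 9.995, 34.4, 9.01, 33.8 and 10.8 CPM in Nrf2 eyes. Cone markers summed to 1151, 195, 52.3, 1292, 464, 78.5 and 369 CPM in control eyes and to 44.8, 149.7, 53.2, 49.3, 41.0, 48.6 and 29.0 CPM in Nrf2 eyes. Control 1 and control 4 were thus the highest libraries for both photoreceptor lists. The summed level of Vsnl1, Snap25 and Syt1, the genes of neurons in general, was 1.65 times the cone sum in Nrf2 2. It was 0.104 and 0.113 times the cone sum in control 5 and control 7, where the 13 retinal neuron genes summed to 4.94 and 10.8 CPM. In the other 11 libraries this ratio ran from 0.201 to 0.594. The part of carried-over retina in the differences between groups was not tested.

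**Figure D2:**
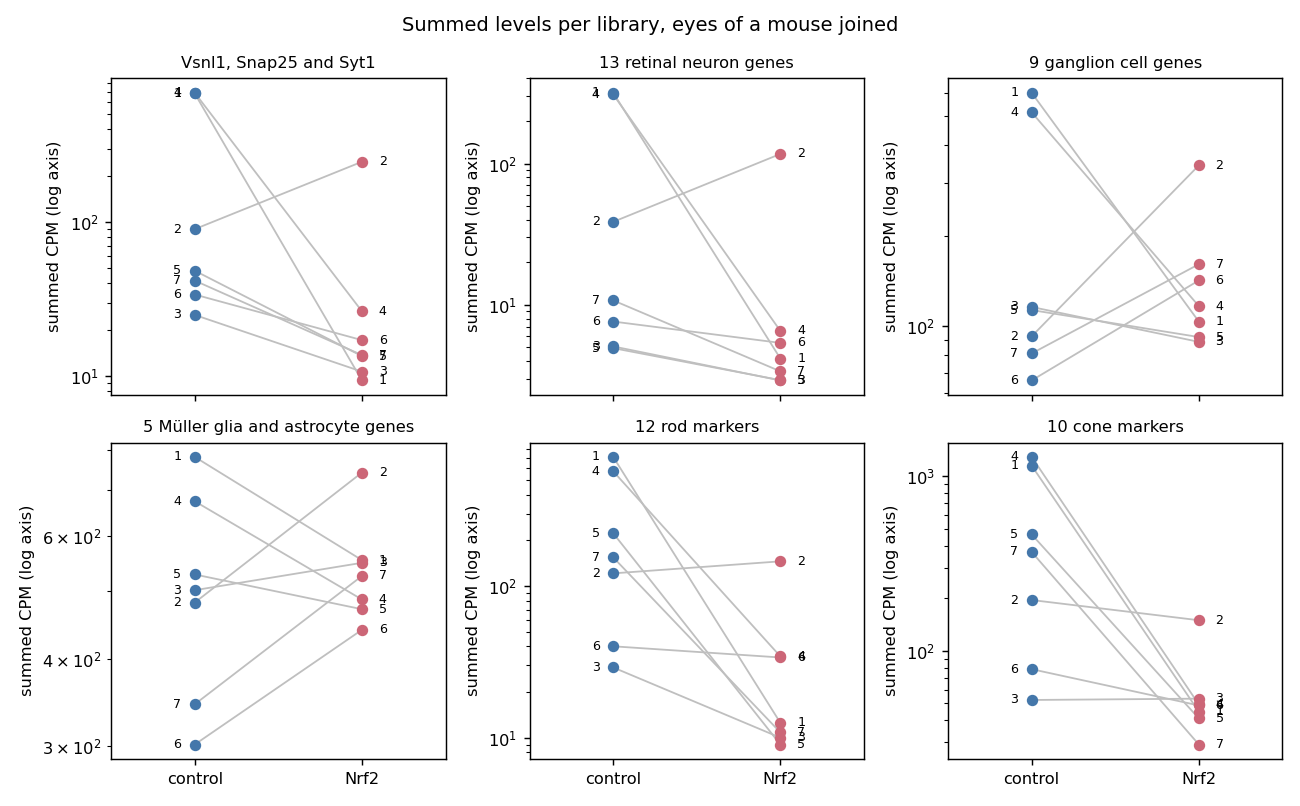
Summed CPM per library (log axis) in control and Nrf2 eyes for 6 gene groups, with the eyes of each mouse joined by a line. The panels of Vsnl1, Snap25 and Syt1 and of the 13 retinal neuron genes are lower in the Nrf2 eye of 6 of 7 mice and higher in mouse 2, the exceptions in the rod and cone panels are mouse 2 and mouse 3, and the Müller glia and astrocyte panel stays within 301 to 781 CPM.

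To determine whether single genes differed between Nrf2 and control eyes, each was taken from a paired fit over all 16289 genes with sufficient counts (edgeR quasi-likelihood test with mouse as a block, p adjusted by Benjamini-Hochberg). Fold changes of single genes are given as log2 ratios of Nrf2 over control eyes from this fit, each with its SE. Of the 36 genes, 28 entered the fit, and 8 had too few counts (Vsx1, Gad2, Slc32a1, Lhx1, Onecut1, Onecut2, Pou4f2 and Slc17a6). At an adjusted p under 0.05, 0 of 28 differed, beside 559 of all genes (3.43%). At an unadjusted p under 0.05 there were 10 of 28, beside 18.1% of all genes. Of these 10, 8 were lower in Nrf2 eyes (Gad1, Tfap2b, Snap25, Gnao1, Calb2, Vsnl1, Syt1 and Abca8a), beside 7.49% of all genes, and 2 were higher (Glul and Nefm), beside 10.7%. In the same design DESeq2 called 8 of 28, beside 11.9% of all genes, and voom with sample quality weights called 9 of 28, beside 15.9%. Cabp5, Calb2, Gad1 and Snap25 were called lower in Nrf2 eyes by both, and Glul higher. DESeq2 also called Syt1 and Tfap2b lower and Nefm higher, and voom called Aqp4, Nefl and Vsnl1 lower and Slc6a9 higher.

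In the edgeR fit the fold changes leaned downward without passing the threshold. The median log2 fold change of the 28 genes was -0.82, against -0.04 over all genes, and 23 of 28 were below 0, against 54.8% of all genes. In 12 of the 36 genes the Nrf2 eye was lower in at least 6 of 7 mice, 11 of them among the 28 tested, and 30.6% of all tested genes did so. In 0 of 36 genes were the groups without overlap, a separation that 1.79% of all tested genes showed. The test was also run without mice 1, 2 and 4, each of which had an eye in the group of high libraries. This choice was made after the data were seen. Over the remaining 4 mice the median was -0.48 for the 26 genes tested, and 2 of them passed, beside 2.92% of all genes: Nefm was higher and Syt1 lower in Nrf2 eyes.

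**Figure D3:**
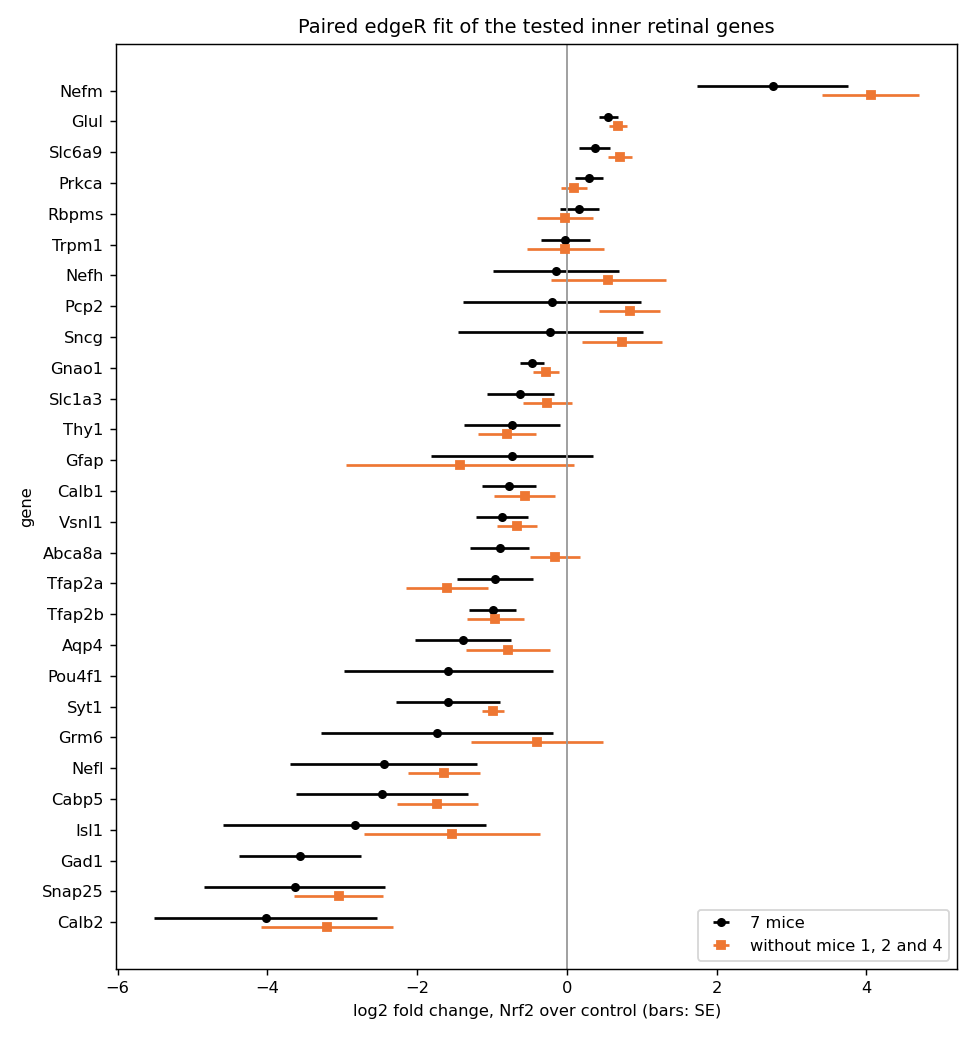
Log2 fold change (Nrf2 over control, bars show the SE) of the 28 tested genes in the paired edgeR fit with 7 mice and with mice 1, 2 and 4 left out. Gad1, Calb2 and Snap25 lie farthest below 0, Nefm lies farthest above, and the bars of most neuronal genes shorten when the 3 mice are left out.

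Among the bipolar cell genes were the receptor, a G protein subunit and the channel of the ON pathway. Grm6 (ENSMUSG00000000617) ranged from 0.272 to 71.9 CPM in control eyes, with a median of 1.47, and from 0.178 to 21.2 CPM in Nrf2 eyes, with a median of 0.394. Its highest libraries were control 4, control 1 and Nrf2 2, and its log2 ratio was -1.73 (SE 1.54, adjusted p = 0.59). Gnao1, the G protein subunit that couples this receptor but is also found in other neurons, ranged from 147 to 349 CPM in control eyes and from 115 to 173 CPM in Nrf2 eyes. The Nrf2 eye was lower in 6 of 7 mice, by a log2 ratio of -0.46 (SE 0.16, adjusted p = 0.17). Trpm1, the channel that this cascade closes, ranged from 452 to 1936 CPM in control eyes and from 806 to 1728 CPM in Nrf2 eyes, with a log2 ratio of -0.02 (SE 0.32, adjusted p = 0.98). Trpm1 and Gnao1 were thus abundant in libraries where Grm6 was close to 0. Control 3 held 0.272 CPM of Grm6, 177 CPM of Gnao1 and 1654 CPM of Trpm1.

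The other bipolar genes followed the pattern of Grm6 with 1 exception. Isl1, a transcription factor of ON bipolar, amacrine and ganglion cells, reached 52.3 CPM in control 4 and 50.5 CPM in control 1, had a median of 1.09 CPM over the control eyes and was at 0 counts in control 5 and Nrf2 6. The log2 ratio of Isl1 was -2.83 (SE 1.76, adjusted p = 0.43). Cabp5 had a median of 2.87 CPM in control eyes, with a highest value of 73.0 in control 1, and a median of 0.475 CPM in Nrf2 eyes, with a highest value of 15.3 in Nrf2 2. It was lower in the Nrf2 eye of 6 mice, with a log2 ratio of -2.47 (SE 1.15, adjusted p = 0.30). Pcp2, a modulator of G protein signalling in rod bipolar cells, reached 74.4 CPM in control 4 and did not fall below 0.484 CPM, with a log2 ratio of -0.20 (SE 1.19, adjusted p = 0.95). Its exons share 941 of 1828 bases with Pet100 on the other strand, and reads there cannot be assigned without strand. Vsx1, a transcription factor of cone bipolar cells, was too low to test and ranged from 0 to 11.2 CPM. The exception was Prkca, the kinase used to stain rod bipolar cells and present in many other cell types, which lay between 22.2 and 51.8 CPM in all libraries (log2 ratio 0.30, SE 0.18, adjusted p = 0.43).

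Amacrine cells gave the gene with the lowest single p-value of the 28, Gad1. Gad1 (ENSMUSG00000070880, chr2:70553072-70602014) stood at 45.6, 13.6, 1.09, 39.1, 0.194, 3.91 and 1.33 CPM in control eyes 1 to 7. Nrf2 eyes 1 to 7 gave 0.687, 15.6, 0, 3.51, 0.0548, 0.175 and 0.0791 CPM. The level was lower in the Nrf2 eye of every mouse but mouse 2, and the groups overlapped. Its log2 ratio was -3.56 (SE 0.82, adjusted p = 0.0541), just short of the threshold. Without mouse 2 it was -4.26 with an adjusted p of 0.0361, in a fit that called 2.39% of all genes, and without mouse 4 it was -3.66 with an adjusted p of 0.0470, in a fit that called 12.2%. Mouse 2 was the mouse that went the other way, so leaving it out lowers the log2 ratio of itself. With mouse 1, 3, 5, 6 or 7 left out the adjusted p of Gad1 lay between 0.0971 and 0.172. Over all alternatives tried the adjusted p of Gad1 ran from 3.12e-06 with DESeq2 to 0.32 without the mouse block. Gad1 had too few counts to be tested without mice 1, 2 and 4.

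Gad2, the second glutamate decarboxylase, and Slc32a1, the transporter that loads GABA and glycine into vesicles, were too low to test. Gad2 reached 15.001 CPM in control 1, 13.6 CPM in control 4 and 11.4 CPM in Nrf2 2, and it was at or below 3.84 CPM in the other libraries. Slc32a1 was above 1 CPM only in control 1 at 4.40 and control 4 at 5.51. The 3 highest libraries were thus the same for these genes and Gad1.

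Calb2 (ENSMUSG00000003657, chr8:110137502-110168210), the calcium buffer calretinin of amacrine and ganglion cells, had the lowest log2 ratio of the 28 genes. It stood at 160, 14.6, 1.09, 186, 1.23, 4.55 and 3.01 CPM in control eyes 1 to 7. Across Nrf2 eyes 1 to 7 the values were 0.641, 69.4, 0.372, 0.694, 0.192, 0.0437 and 0.237 CPM. The groups overlapped through Nrf2 2. The next highest Nrf2 library, Nrf2 4, held 0.694 CPM (17 counts), and the lowest control library, control 3, held 1.09 CPM (36 counts). Setting Nrf2 2 aside is a choice made on these same values. The share of all genes that would separate in that way was not counted. The log2 ratio was -4.02 (SE 1.49, adjusted p = 0.20), and without mice 1, 2 and 4 it was -3.20 (SE 0.88, adjusted p = 0.11).

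The remaining amacrine genes differed from this pattern. Tfap2b, an AP-2 transcription factor of amacrine cells that surface epithelia also use, ranged from 16.6 to 34.2 CPM in control eyes and from 3.41 to 19.2 CPM in Nrf2 eyes. It was the 1 member lower in the Nrf2 eye of all 7 mice, with a log2 ratio of -0.99 (SE 0.31, adjusted p = 0.14). Its relative Tfap2a had a median of 4.87 CPM in control eyes and 1.86 CPM in Nrf2 eyes, with its highest level, 11.2 CPM, in control 6 (log2 ratio -0.96, SE 0.51, adjusted p = 0.36). Surface epithelium markers were also highest in control 6, at 50480 CPM, had medians of 21805 CPM in control eyes and 7498 CPM in Nrf2 eyes, and were lower in the Nrf2 eye of 6 mice. Their part in the levels of Tfap2a and Tfap2b was not tested. Slc6a9, the glycine transporter of glycinergic amacrine cells, ranged from 172 to 406 CPM in control eyes and from 232 to 424 CPM in Nrf2 eyes (log2 ratio 0.37, SE 0.21, adjusted p = 0.38). Its level in the Nrf2 eye was the higher one in 5 of 7 mice and did not follow the other amacrine genes. Its exons share 1429 of 5141 bases with Ccdc24 on the other strand.

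Horizontal cell genes summed to 2.10 to 18.8 CPM per library. Lhx1 and Onecut1, both transcription factors that set up horizontal cells, stayed at or below 1.94 and 0.725 CPM in all 14 libraries and were not tested. Onecut2 was at 12.9 CPM in Nrf2 2 and at or below 1.07 CPM in the other 13 libraries. Calb1, the calcium buffer calbindin, was the tested gene of the class and had a median of 6.56 CPM in control eyes and 3.07 CPM in Nrf2 eyes. Its log2 ratio was -0.77 (SE 0.36, adjusted p = 0.30).

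**Figure D4:**
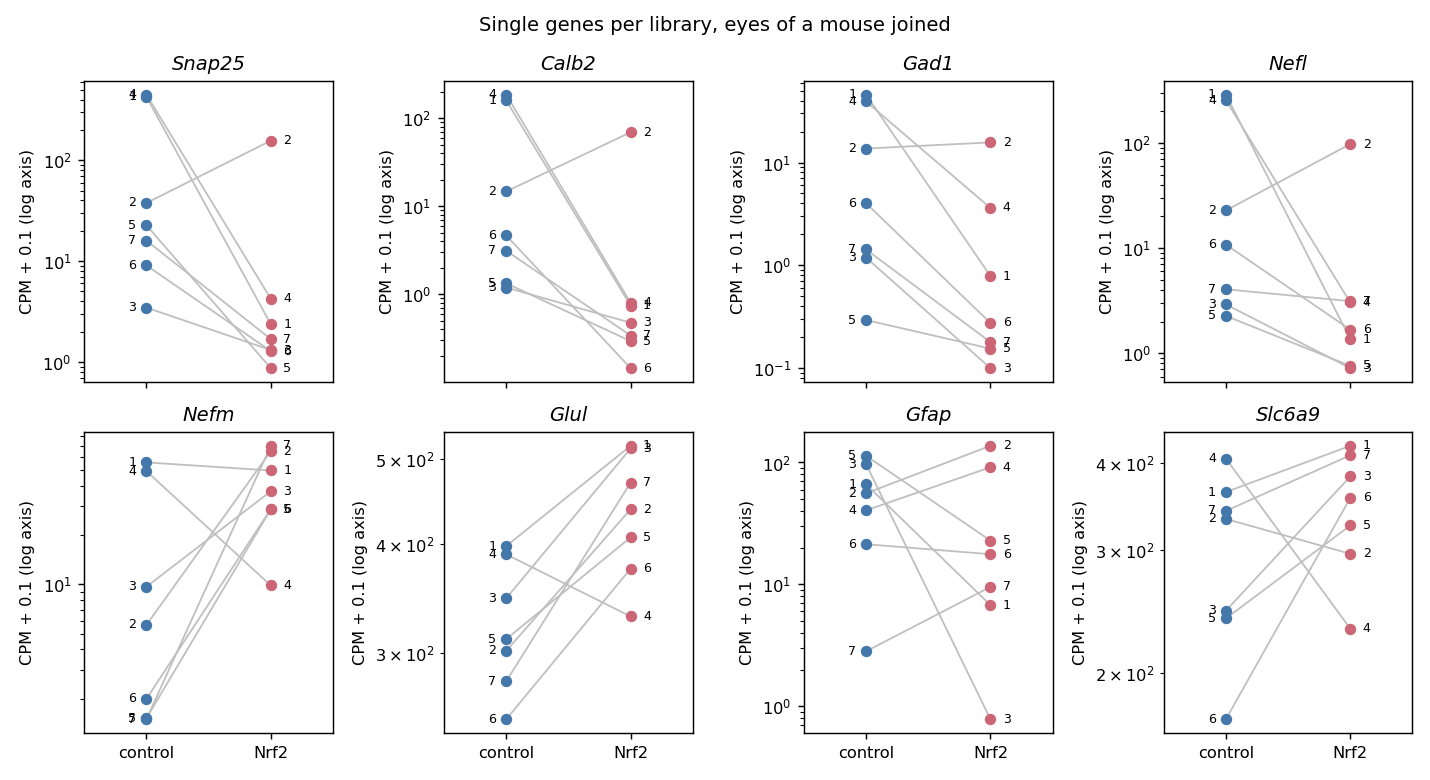
CPM + 0.1 (log axis) of 8 genes in control and Nrf2 eyes, with the eyes of each mouse joined. Snap25, Calb2, Gad1 and Nefl are lower in the Nrf2 eye of 6 of 7 mice, Nefm is higher in 5 of 7 and Glul in 6 of 7, while Gfap and Slc6a9 go both ways.

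Ganglion cell genes split within a single family of structural proteins, the neurofilaments. Nefl (ENSMUSG00000022055, chr14:68083863-68089095), the light chain, stood at 288, 22.7, 2.81, 255, 2.16, 10.7 and 3.96 CPM in control eyes 1 to 7. The Nrf2 eyes 1 to 7 held 1.26, 97.5, 0.621, 2.94, 0.657, 1.57 and 3.03 CPM. It was lower in the Nrf2 eye of 6 mice, with a log2 ratio of -2.44 (SE 1.25, adjusted p = 0.34). Nefm (ENSMUSG00000022054, chr14:68082590-68124846), the medium chain, stood at 55.3, 5.54, 9.56, 48.9, 1.42, 1.89 and 1.40 CPM in control eyes 1 to 7. The levels in Nrf2 eyes 1 to 7 were 49.4, 64.7, 36.8, 9.72, 28.5, 28.6 and 69.9 CPM.

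Nefm was thus higher in the Nrf2 eye of 5 mice and lower in mice 1 and 4, whose control eyes were the high libraries. The log2 ratio of Nefm was 2.75 (SE 1.01, adjusted p = 0.20). Without mouse 4 it was 3.35 with an adjusted p of 0.0232, and without mice 1, 2 and 4 it was 4.06 (SE 0.65) with an adjusted p of 0.0455. These fits called 12.2% and 2.92% of all genes. Mice 1 and 4 were the mice with lower Nefm in the Nrf2 eye, so leaving them out raises its log2 ratio of itself. With mouse 1, 2, 3, 5, 6 or 7 left out the adjusted p of Nefm lay between 0.242 and 0.414, and without the mouse block the value was 1.44 with an adjusted p of 0.285. Nefl over the same 4 mice had a log2 ratio of -1.64 (SE 0.48, adjusted p = 0.12). The difference between the fold changes of Nefm and Nefl was not tested.

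Per transcript length the relation of the chains to each other differed between libraries. The level of Nefm in TPM divided by that of Nefl was 0.112, 0.143, 1.99, 0.112, 0.384, 0.104 and 0.207 in control eyes 1 to 7. Nrf2 eyes 1 to 7 gave 22.9, 0.388, 34.7, 1.93, 25.4, 10.6 and 13.5. Nefm was the more abundant chain in 6 of 7 Nrf2 eyes and in 1 of 7 control eyes, the library labelled control 3. The genes overlap on opposite strands, and 1108 bases of exon belong to both, 32.8% of the exonic length of Nefl and 19.2% of that of Nefm. Reads from the shared bases cannot be told apart without strand, so the levels of both are uncertain to that extent.

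**Figure D5:**
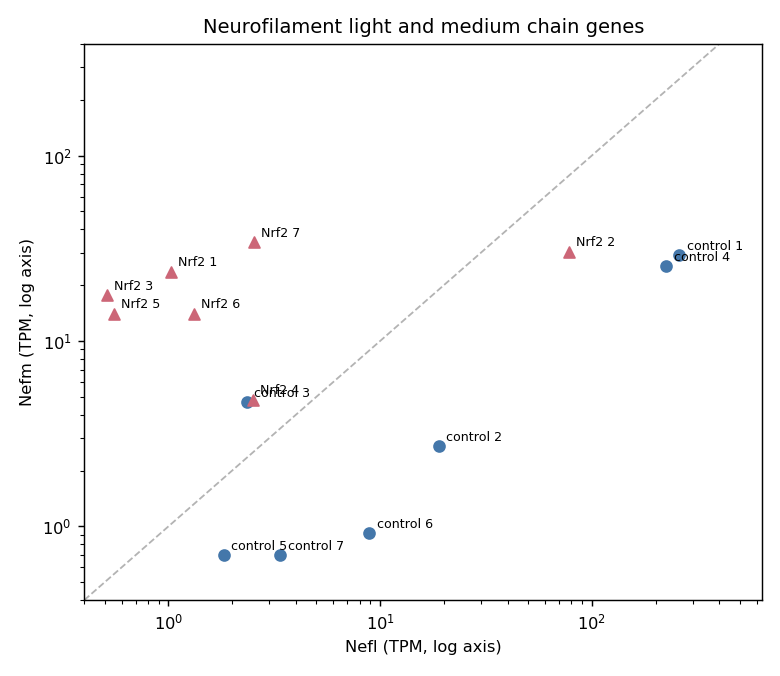
Nefm against Nefl in TPM (both axes log) in the 14 libraries, with a dashed line where the levels are equal. All Nrf2 libraries but Nrf2 2 lie above the line, and all control libraries but control 3 lie below it.

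Nefh, the heavy chain, showed neither course. It had a median of 9.98 CPM in control eyes, with 120 CPM in control 1, and a median of 7.38 CPM in Nrf2 eyes, with 46.6 CPM in Nrf2 2 (log2 ratio -0.14, SE 0.84, adjusted p = 0.95). Sncg, the gamma-synuclein of ganglion cells, had medians of 1.68 and 1.09 CPM and reached 47.6 CPM in control 4 (log2 ratio -0.22, SE 1.24, adjusted p = 0.95). For both genes the direction turned positive when mice 1, 2 and 4 were left out, at 0.56 for Nefh and 0.74 for Sncg, and neither passed the threshold.

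The genes that define ganglion cells most closely were low in most libraries. Pou4f1, a transcription factor of these cells, reached 3.46 CPM in control 4 and had a median of 0.0687 CPM in Nrf2 eyes (log2 ratio -1.58, SE 1.40, adjusted p = 0.58). Its relative Pou4f2 was at or below 0.181 CPM in all libraries but control 1 (1.49) and control 4 (2.72). Slc17a6, the vesicular glutamate transporter of ganglion cells, reached 23.2 CPM in control 1 and 21.99 CPM in control 4, stood at 1.94 CPM in control 2, and was at 0 counts in Nrf2 3, Nrf2 6 and Nrf2 7. Thy1, a surface protein of ganglion cells and T cells, was highest in Nrf2 2 at 10.2 CPM (log2 ratio -0.73, SE 0.64, adjusted p = 0.57). Rbpms, an RNA-binding protein that marks ganglion cells in the retina and is widely used elsewhere, lay between 40.3 and 104 CPM in all libraries, and at 54.5 CPM in Nrf2 5, where Pou4f2 was at 0 counts (log2 ratio 0.16, SE 0.26, adjusted p = 0.78).

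Müller glia and astrocyte genes summed to 301 to 781 CPM, most of it from Glul, with means of 516 ± 169 CPM in control eyes and 539 ± 98.7 CPM in Nrf2 eyes (SD, n = 7 each). Glul (ENSMUSG00000026473, chr1:153899944-153909723), the glutamine synthetase, stood at 397, 302, 347, 389, 311, 252 and 279 CPM in control eyes 1 to 7. Across Nrf2 eyes 1 to 7 the values were 517, 438, 513, 330, 407, 375 and 469 CPM. The Nrf2 eye held more Glul in every mouse but mouse 4, with means of 325 ± 54.7 and 436 ± 70.1 CPM (SD, n = 7 each). Glul had a log2 ratio of 0.55 (SE 0.13, adjusted p = 0.0587). Without mouse 4 the value was 0.65 with an adjusted p of 0.0101, without mice 3 and 4 it was 0.63 with an adjusted p of 0.0477, and without the mouse block it was 0.57 with an adjusted p of 0.0208. These fits called 12.2%, 4.5% and 6.75% of all genes. Mouse 4 was the mouse with less Glul in the Nrf2 eye, so leaving it out raises the log2 ratio of itself. With mouse 1, 2, 3, 5, 6 or 7 left out the adjusted p of Glul lay between 0.0828 and 0.196.

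The next 3 glial genes had negative fold changes and did not pass the threshold in the edgeR fit. Abca8a, a lipid transporter enriched in Müller glia, ranged from 8.92 to 80.0 CPM in control eyes and from 10.1 to 17.2 CPM in Nrf2 eyes, and it was lower in 6 mice (log2 ratio -0.90, SE 0.39, adjusted p = 0.27). Without mice 1, 2 and 4 its log2 ratio was -0.16 (SE 0.33, adjusted p = 0.81). Slc1a3, the glial glutamate transporter, had a median of 63.9 CPM in control eyes and 28.1 CPM in Nrf2 eyes, with 131 CPM in Nrf2 2 (log2 ratio -0.62, SE 0.45, adjusted p = 0.50). Aqp4, the water channel of glial endfeet, had medians of 15.6 and 3.85 CPM (log2 ratio -1.39, SE 0.64, adjusted p = 0.30).

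Gfap, the intermediate filament of astrocytes and of stressed Müller glia, varied widely in both groups. It stood at 66.0, 55.8, 96.9, 40.4, 113, 21.3 and 2.73 CPM in control eyes 1 to 7. The Nrf2 eyes 1 to 7 held 6.66, 137, 0.683, 91.3, 22.8, 17.6 and 9.44 CPM. The groups overlapped over nearly their whole range, and the log2 ratio was -0.73 (SE 1.08, adjusted p = 0.76). Mbp, a gene of myelinating glia, which are not part of the mouse retina, was highest in control 3 (2722), Nrf2 2 (1604) and Nrf2 4 (2661), the libraries that also held 96.9, 137 and 91.3 CPM of Gfap. In control 5, which held 113 CPM of Gfap, Mbp stood at 489 CPM. Mbp is 1 of the 8 Schwann cell markers, and their sum followed Gfap less closely. That sum was 3860 CPM in control 3, 3734 CPM in Nrf2 4 and 2233 CPM in Nrf2 2. It was 1983 CPM in control 6, which held 21.3 CPM of Gfap, and 1789 CPM in control 5. The 7 libraries highest for Gfap were also the 7 highest for Slc1a3. The part of optic nerve or other myelinated tissue in the Gfap level was not tested.

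The last class held the 3 genes of neurons in general. Snap25 and Syt1 were highest in control 1, control 4 and Nrf2 2, and Vsnl1 in control 4, control 1 and control 5. Snap25 (ENSMUSG00000027273, chr2:136713453-136782428), a membrane fusion protein of synapses, stood at 427, 37.6, 3.36, 447, 22.5, 8.97 and 15.9 CPM in control eyes 1 to 7. The levels in Nrf2 eyes 1 to 7 were 2.27, 156, 1.21, 4.13, 0.767, 1.18 and 1.58 CPM. It was lower in the Nrf2 eye of every mouse but mouse 2, with a log2 ratio of -3.64 (SE 1.21, adjusted p = 0.16), and without mice 1, 2 and 4 it was -3.05 (SE 0.60, adjusted p = 0.0695). Photoreceptors also use Snap25. Controls 5 and 7, at 22.5 and 15.9 CPM of Snap25, held 464 and 369 CPM of cone markers. The part of photoreceptors in the Snap25 level was not tested.

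Syt1, the calcium sensor of transmitter release, had a median of 19.8 CPM in control eyes and 8.11 CPM in Nrf2 eyes and reached 241 CPM in control 1 and 83.2 CPM in Nrf2 2. Its log2 ratio was -1.59 (SE 0.69, adjusted p = 0.27). Without mice 1, 2 and 4 it was smaller in size with a smaller SE, at -0.98 (SE 0.15, adjusted p = 0.0412). Vsnl1, a neuronal calcium sensor, ranged from 6.08 to 15.9 CPM in control eyes and from 1.72 to 8.21 CPM in Nrf2 eyes (log2 ratio -0.87, SE 0.34, adjusted p = 0.23).

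A further list of 93 inner retina genes, none of them among the 36, was read in the same fit to see whether the named genes stood for their classes. Of 71 with enough counts, 3 passed at an adjusted p under 0.05, beside the 3.43% of all genes, and 23 of 71 had an unadjusted p under 0.05, beside 18.1% of all genes, with 18 of them lower in Nrf2 eyes, beside 7.49%. Dbi, an acyl-CoA-binding protein of Müller glia and many other cells, was higher in Nrf2 eyes, in 7 of 7 mice (log2 ratio 0.60, SE 0.12, adjusted p = 0.0320). Sept4, a septin that marks horizontal cells in the retina, was higher in 6 of 7 mice (log2 ratio 1.12, SE 0.24, adjusted p = 0.0446). Rgs11, the regulator that speeds the ON bipolar cascade, was lower in all 7 mice (log2 ratio -0.69, SE 0.14, adjusted p = 0.0401). The list gave 0 calls when mouse 1, 3, 5, 6 or 7 was left out. It gave 2 without mouse 2, in a fit that called 2.39% of all genes. These were Cplx1 and Elavl3, named here after their values were seen, and neither was among the 3 genes above. It gave 9 without mouse 4, in a fit that called 12.2% of all genes.

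The largest fold changes of this list did not pass the threshold in the edgeR fit. Cplx1 (-5.02, SE 1.54, adjusted p = 0.13) and Cplx3 (-3.84, SE 1.19, adjusted p = 0.14) encode complexins, which clamp synaptic vesicles before release. Gjd2 (-4.66, SE 1.57, adjusted p = 0.16) encodes the gap junction protein that couples amacrine and other retinal neurons, and Rgs7 (-3.74, SE 1.38, adjusted p = 0.20) encodes the partner of Rgs11 in ON bipolar cells. Th, the tyrosine hydroxylase of dopaminergic amacrine cells, went the other way (3.57, SE 1.04, adjusted p = 0.12). These values are log2 ratios of the same paired fit.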

How the data were processed

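RNA from 14 eyecup preparations, both eyes of 7 rd1 mice at postnatal day 20, was amplified with a low-input kit and run on 2 sequencing runs that the labels do not assign to libraries. Per the study's methods, reads were aligned to mm10 with Ensembl release 91 annotation, and transcripts were also quantified with Salmon (0.9.1 in the submitters' processing notes) and summed per gene for DESeq2. The authors deposited estimated counts per gene as whole numbers without normalization. Their origin in Salmon is inferred and not stated. The row of the human vector transcript entered the library sizes and the fit and was never counted among genes.

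Ensembl identifiers were matched to symbols, and positions and exon lengths came from GENCODE M21 (GRCm38). CPM were scaled to all counts of a library, and TPM to exonic length. The test was the edgeR 4.0.16 quasi-likelihood test in R 4.3.3 on the terms mouse and treatment, with TMM factors, filterByExpr with a minimum count of 10 and Benjamini-Hochberg adjustment over 16289 genes. SE were derived from its F statistic, with 6 residual degrees of freedom and 2.68 from the prior. The procedure was tested on simulated data. Pairing follows the individual that the labels give for each eye. The labels hold 7 individuals, more pairs than the study's methods state for this age, and all were used. Over 16289 genes the deviations of the eyes of mice 1 to 7 correlated at 0.0023, 0.0826, 0.029, -0.3053, 0.3034, -0.1646 and 0.1444. Alternatives were no mouse block, RLE factors, DESeq2 1.42.0, limma 3.58.1 with voom and quality weights, no filter, each mouse left out, and mice 3 and 4 left out. Leaving out mice 1, 2 and 4, or the vector row, and dropping Slc6a9 from the neuronal sum were added after the data were seen.

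The 36 genes and all lists were chosen with earlier results of these data known. All 36 were to be described, with genes of the further list named where they passed the threshold or were among its 5 largest absolute log2 fold changes. CPM of single libraries have no error of their own beyond counting.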

Additional observations from a re-analysis of the deposited data

Results flagged for a closer look

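Over the 36 genes and 9 sums, each group of 7 eyes was examined for a highest or lowest library that lay apart from the rest (Dixon's test at the 95% limit). Of 90 groups examined, 29 held such a library, and 28 of the 29 were the library labelled Nrf2 2. Nrf2 2 was the highest Nrf2 library in each of these cases. Chance gives about 4.5 for independent, normal values, but the sums hold the same genes. The test looks for a library that lies apart alone, so high libraries close to each other hide each other. Control 1 and control 4 lay close in this way, at 427 and 447 CPM for Snap25. The flags therefore do not set Nrf2 2 above these controls. Over the 36 genes the highest library was control 1 in 12, control 4 in 13 and Nrf2 2 in 5.

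Among bipolar genes Nrf2 2 lay apart at 51.8 CPM for Prkca, 21.2 for Grm6, 2.30 for Vsx1, 14.9 for Isl1, 23.3 for Pcp2 and 15.3 for Cabp5. Among amacrine genes it lay apart at 15.6 CPM for Gad1, 11.4 for Gad2, 0.967 for Slc32a1 and 69.4 for Calb2. Among horizontal cell genes it lay apart at 0.242 CPM for Lhx1, 0.725 for Onecut1 and 12.9 for Onecut2. Among ganglion cell genes it lay apart at 2.18 CPM for Pou4f1, 97.5 for Nefl, 46.6 for Nefh, 21.1 for Sncg, 10.2 for Thy1 and 10.7 for Slc17a6. Among glial genes it lay apart at 18.1 CPM for Aqp4 and 131 for Slc1a3, and among genes of neurons in general at 156 for Snap25 and 83.2 for Syt1.

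The sums flagged in Nrf2 2 were 18.8 CPM for horizontal cells, 343 for ganglion cells, 741 for Müller glia and astrocytes, 246 for neurons in general and 117 for the 13 retinal neuron genes. Control 6 lay apart at 11.2 CPM for Tfap2a. Nrf2 2 was also the library with the fewest counts. These values share 1 library and are not independent of each other.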

How the results depend on the processing

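With the fit of 7 mice 0 of the 36 genes, 3 of 71 further inner retina genes and 559 of all genes differed. Without the replicate block these counts were 1, 8 and 1100, with DESeq2 8, 24 and 1943, and with voom 9, 26 and 2590. Without the filter on low counts the further list gave 0 and all genes 347, and with the vector row left out the further list gave 1 and all genes 441. With 1 mouse left out at a time, the 36 genes gave 0 to 3, the further list 0 to 9 and all genes 111 to 1998, the highest count being without mouse 4 in each case. Without mice 3 and 4 the 36 genes gave 1, and without mice 1, 2 and 4 they gave 2. The median log2 fold change stayed negative in every setting tried, from -1.16 with voom to -0.48 without mice 1, 2 and 4. The mean of the summed levels, 3136 CPM in control and 2556 CPM in Nrf2 eyes, was 399 and 367 CPM over 14 retinal neuron genes, and 98.9 and 20.3 CPM without Slc6a9. The block moved the direction of Thy1, which was 0.15 without it. Directions also turned, with none past the threshold, for Trpm1 (-0.32 to 0.13 with 1 mouse left out, 0.0345 without mice 3 and 4), Pcp2 (-0.80 to 0.48, 0.57 without mice 3 and 4, 0.84 without mice 1, 2 and 4), Rbpms (-0.0302 to 0.33, -0.23 with voom, -0.0221 without mice 1, 2 and 4), Nefh (-0.65 to 0.40, 0.75 without mice 3 and 4, 0.56 without mice 1, 2 and 4) and Sncg (-0.92 to 0.50, 0.47 without mice 3 and 4, 0.74 without mice 1, 2 and 4). The cause of these differences was not tested. Low counts limit the 8 genes that were not tested.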

Other observations

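Uchl1, a ubiquitin hydrolase of ganglion cells and other neurons, was in the further list and was chosen here after its values were seen. It stood at 50.9, 6.81, 23.8, 56.7, 6.43, 2.78 and 2.32 CPM in control eyes 1 to 7. In Nrf2 eyes 1 to 7 it stood at 173.6, 132, 129, 24.9, 82.8, 105 and 243 CPM. The highest control libraries were control 4 and control 1, and the Nrf2 eye was higher in all mice but mouse 4. Its log2 fold change in the paired edgeR fit was 3.51 (SE 0.90, adjusted p = 0.08), and Th, from the same list, stayed at or below 1.17 CPM in control eyes and lay between 0.61 and 8.73 CPM in Nrf2 eyes.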
